A study of Mus musculus with 6 samples.

Results

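The 4 genes of the Nuclear factor I (NFI) family, Nfia, Nfib, Nfic and Nfix, were taken by name from the 21938 protein-coding genes of the GENCODE M21 mouse annotation, and the H3K9me3 peaks over their promoters, exons, introns and flanks of 100 kb were described. H3K9me3, histone H3 trimethylated at lysine 9, had been profiled by ChIP-seq, the sequencing of immunoprecipitated chromatin, in neural stem cells (NSCs) cultured from the mouse cerebral cortex. All cells had been infected with lentivirus, which carried a scramble shRNA in the shCTR NSCs and an shRNA against the histone demethylase PHF8 in the shPHF8 NSCs. Each condition had 2 ChIP libraries, and 1 peak list was deposited per ChIP library, while the 2 inputs had none. The labels do not say whether the 2 libraries of a condition came from separate cultures, so the spread between them may be technical, and each condition rests on a single lentiviral shRNA in one kind of culture.

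NFI proteins bind DNA as dimers at a palindrome whose half-site reads TTGGCA, through an N-terminal domain that the family shares and that is encoded mostly by the second exon. NFIA and NFIB act together in the switch of neural progenitors to making glia, NFIX regulates neural stem cells and muscle, and NFIC is best known from tooth root development. H3K9me3 marks heterochromatin and is found over repeats and silenced genes, and PHF8 removes lower methylation states of the same lysine. A called peak states where the mark was enriched over a threshold, and it does not measure the RNA of the gene beneath it.

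Values of the 2 libraries of a condition are given in the order replicate 1, replicate 2 throughout. The lists held 44316 to 55555 peaks per library on chromosomes 1 to 19, X and Y. They covered 157 and 160 Mb in the shCTR libraries, and 219 and 197 Mb in the shPHF8 libraries, so the mean covered length was 1.32 times larger in shPHF8 NSCs. Peaks had a median width of 2400 bp in both shCTR libraries, against 4200 and 2800 bp in the shPHF8 libraries. Peak positions carry no height or score, and the lists do not give the depth behind each call. The knockdown cannot be read from these lists, and Phf8 itself, the targeted gene, had 0 covered bases in its body in all 4 libraries. Of the 6 markers of the labelled cell type, 4 had a peak in the body in at least 1 library, and Pax6 had a peak within 3 kb of its start in all 4 libraries and Sox2 had none, which says nothing of their RNA. Among the neuron markers Tubb3 and Dcx had no peak in the body and Rbfox3 had one in all 4 libraries, and of the astrocyte markers Gfap, Aqp4 and S100b none had a peak within 3 kb of its start. In the body Gfap was covered over 4000 and 1200 bp in the shCTR libraries and 0 and 3600 bp in the shPHF8 libraries, Aqp4 over 2000 bp in shCTR replicate 2 only, and S100b in none.

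Nfia, on chromosome 4 from 97772734 to 98118874 on the plus strand (GRCm38), had less of its body under H3K9me3 peaks in shPHF8 than in shCTR NSCs. Peaks covered 17200 and 19000 bp of its 346141 bp in the shCTR libraries, and 14200 and 11400 bp in the shPHF8 libraries. Both shPHF8 libraries lay below both shCTR libraries, which is what "lower" means from here on, with "higher" for the opposite case and "overlapping" for the rest. The means were 18100 ± 1273 bp and 12800 ± 1980 bp (SD, n = 2 each), a difference of -5300 bp and a ratio of 0.707. The exact two-sided permutation test gave p = 0.333, the smallest p that 2 libraries against 2 allow, so this design cannot pass 0.05 for any gene. A lower body was found in 6.08% of all protein-coding genes and in 12.4% of the 2492 that span 100 kb or more. Scaling each library to the same total covered length moved the difference to -9712 bp and these shares to 14.1 and 28.1%. Both shPHF8 libraries had the larger totals, so scaling cannot undo a lower call and did not test it. Keeping only peaks of 2000 bp or wider moved the difference to -2900 bp, still lower.

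The number of peaks in the Nfia body was 6 in each shCTR library and 3 in each shPHF8 library. These merged into 7 regions, of which 3 held a peak in all 4 libraries, a state seen in 37.9% of the 71107 regions of the genome. The other 4 held peaks of shCTR libraries only, 1 of them in both and 3 in a single shCTR library each. No genome share of this state is given here. The 3 shared regions were the 3 nearest to the start of the gene, around the second exon and in the long second intron that follows.

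The region nearest to the start of Nfia, chr4:97782201-97786800, took in the whole second exon in every library. Its covered length was 3000 and 3600 bp in the shCTR libraries, and 3600 and 4600 bp in the shPHF8 libraries, so the groups overlapped. The exon spans 532 bp, all of it coding, and those 532 bp were the only exonic bases of Nfia under a peak in these 4 lists. The second exon of each paralog has the same length of 532 bp, and the other 3 lay under no peak. The distance from exon 2 to the nearest peak was 8237 to 9637 bp in Nfib, 30402 to 33002 bp in Nfic and 2983 to 11685 bp in Nfix over the 4 libraries. The first 150 bases of this exon are shown so that the 4 paralogs can be compared at the one exon of Nfia that lay under a peak. They run from chr4:97783082-97783231 on the plus strand in Nfia, and from chr4:82498620-82498769, chr10:81420649-81420798 and chr8:84772166-84772315 on the minus strand in Nfib, Nfic and Nfix, and capitals mark the bases that differ from Nfia.
Nfia exon 2: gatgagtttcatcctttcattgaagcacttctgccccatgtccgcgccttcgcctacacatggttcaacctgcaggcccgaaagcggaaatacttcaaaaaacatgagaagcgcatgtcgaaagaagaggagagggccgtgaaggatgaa
Nfib exon 2: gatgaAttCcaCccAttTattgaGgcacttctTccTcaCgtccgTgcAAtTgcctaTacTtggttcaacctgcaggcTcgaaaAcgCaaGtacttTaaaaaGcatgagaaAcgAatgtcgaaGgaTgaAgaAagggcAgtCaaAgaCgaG
Nfic exon 2: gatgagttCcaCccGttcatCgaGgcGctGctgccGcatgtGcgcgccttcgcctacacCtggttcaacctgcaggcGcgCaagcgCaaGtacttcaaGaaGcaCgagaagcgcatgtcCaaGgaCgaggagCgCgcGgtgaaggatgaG
Nfix exon 2: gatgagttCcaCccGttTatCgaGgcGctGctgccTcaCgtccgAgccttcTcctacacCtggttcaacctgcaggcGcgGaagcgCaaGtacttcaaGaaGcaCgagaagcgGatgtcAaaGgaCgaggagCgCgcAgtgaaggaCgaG
In these stretches 32, 24 and 29 bases differed from Nfia in Nfib, Nfic and Nfix. Over the whole exon, Nfia was identical to Nfib at 76.3%, to Nfic at 75.8% and to Nfix at 78.6% of positions. The exon with the mark had the lowest GC content of the 4, 49.4% against 50.4% in Nfib, 63.0% in Nfic and 58.1% in Nfix.

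Within the second intron of Nfia, 1 further shared region was lower in shPHF8 NSCs and 1 was lost. The region chr4:97827001-97834200 was covered over 6000 and 4600 bp in the shCTR libraries, and over 4200 and 3600 bp in the shPHF8 libraries. The region between them, chr4:97796401-97803600, had 4600 bp in each shCTR library, with 6400 and 3200 bp in the shPHF8 libraries, and overlapped. Farther into the intron, 1 region held 1000 and 1800 bp in the shCTR libraries and no peak in either shPHF8 library. Such a lost region, with a peak in both shCTR and in neither shPHF8 library, made up 5.03% of all regions.

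Upstream of Nfia the covered length was lower and downstream it was higher in shPHF8 NSCs. In the 100 kb upstream it was 10867 and 9400 bp in the shCTR libraries, and 8000 and 6800 bp in the shPHF8 libraries, a mean difference of -2734 bp (exact permutation p = 0.333). A lower upstream flank was found in 7.11% of protein-coding genes, or 19.8% after scaling. The groups overlapped when the flank was set at 50 kb (-1800 bp) or peaks under 2000 bp were left out (-1934 bp). This flank lies inside E130114P18Rik, an oppositely oriented gene that also overlaps the start of Nfia, and whose body was covered over 46600 and 45400 bp in the shCTR libraries against 23200 and 11200 bp in the shPHF8 libraries. Within the flank, 1 region present in all 4 libraries, chr4:97694201-97703000, went the other way, with 6200 and 4200 bp in shCTR against 8000 and 6800 bp in the shPHF8 libraries. Downstream of Nfia the covered length was 0 and 874 bp in the shCTR libraries, and 2400 and 4400 bp in the shPHF8 libraries. That difference of 2963 bp was 1963 bp without shPHF8 replicate 2, and a higher downstream flank was found in 33.3% of genes, or 16.9% after scaling. It included the 1 gained region of the 4 loci, chr4:98163201-98165600, with 2400 and 1400 bp in the shPHF8 libraries and no shCTR peak, a state of 4.28% of all regions.

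**Figure D1:**
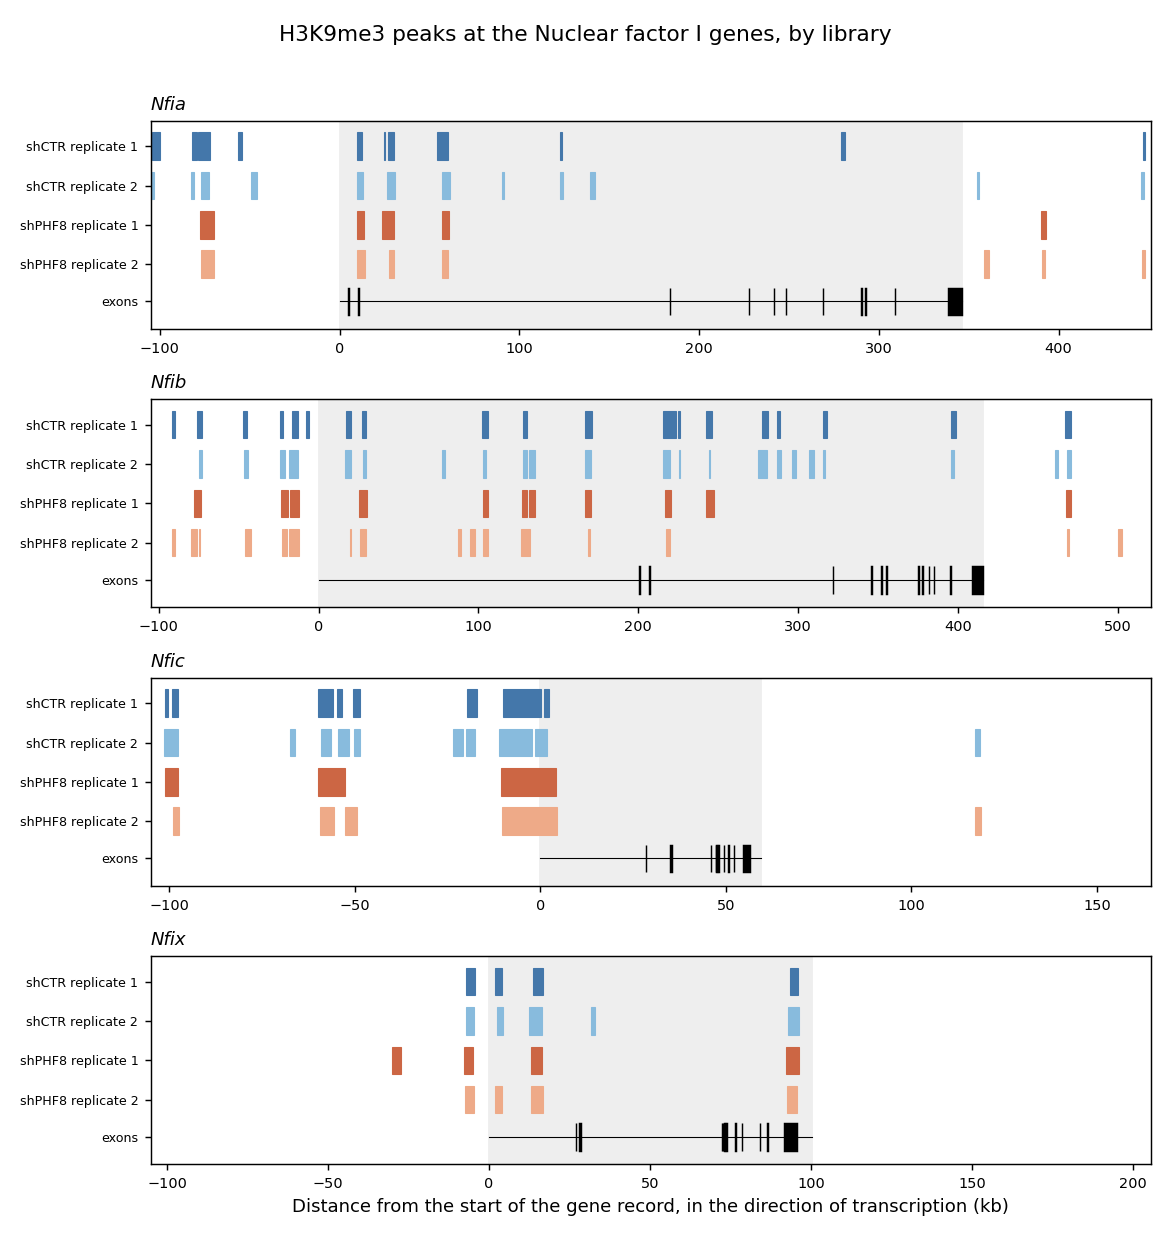
Every H3K9me3 peak over the 4 NFI genes and their 100 kb flanks, 1 row per library, by distance from the start of the gene record in the direction of transcription (kb). The grey field is the gene body and black boxes are exons of the principal transcript. In Nfia all peaks of the shPHF8 libraries within the gene fall in the 3 regions nearest to the start, in Nfib the principal transcript has 2 and 1 peaks in the shPHF8 libraries against 7 and 9 in the shCTR libraries, and in Nfic no peak reaches an exon of the principal transcript.

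Nfib, NFIA's partner in gliogenesis and the longest of the 4, had the largest difference of the family in covered bases. Its record runs on the minus strand of chromosome 4 from 82290173 to 82705750, over 415578 bp. Peaks covered 40400 and 43800 bp in the shCTR libraries, and 27600 and 21000 bp in the shPHF8 libraries. The groups did not overlap, with means of 42100 ± 2404 bp and 24300 ± 4667 bp (SD, n = 2 each), a difference of -17800 bp and a ratio of 0.577 (exact permutation p = 0.333). The number of peaks was 12 and 16 in the shCTR libraries and 7 and 8 in the shPHF8 libraries. All covered bases were intronic, and no exon of Nfib lay under a peak in any library. A fall of at least this many bases was measured in 40 of the 2492 long protein-coding genes, or 1.61%, Nfib included, and a fall at least as large by share of the body was measured in 109 of them. With covered lengths scaled to the same total, a step that cannot undo a lower call here, the difference was -27426 bp.

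Divided at the start of its principal transcript, Nfib was lower on the downstream side and overlapped on the upstream side. The principal transcript, which starts at 82505308, spans 215136 bp, and a longer transcript, Nfib-212, extends the record upstream by 200442 bp. Within the principal transcript, peaks covered 24400 and 23600 bp in the shCTR libraries but 8400 and 2600 bp in the shPHF8 libraries, a difference of -18500 bp. In the upstream extension they covered 16000 and 20200 bp in the shCTR libraries and 19200 and 18400 bp in the shPHF8 libraries, so the groups overlapped and the means differed by 700 bp (exact permutation p = 1). This division was added after seeing the data. Whether the differences of these 2 stretches differ from each other was not tested.

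Of the 9 regions within the principal Nfib transcript, 5 were lost and 1 had a peak in all 4 libraries, beside 5.03 and 37.9% of all regions. In 7 of the 9, neither shPHF8 library had a peak, a state for which no genome share is given here. These were the 5 lost regions and 2 with a peak in shCTR replicate 2 only. In the extension 4 of 8 regions had a peak in all 4 libraries and 0 were lost. Lost regions lay in the second intron and, for 1 of them, in the eleventh. The widest, chr4:82424601-82431000, held 3400 and 6000 bp in the shCTR libraries. Another lost region of the second intron, chr4:82387401-82390200, held 2800 and 1600 bp, and yet another, chr4:82416601-82419000, held 2000 and 2400 bp. The lost region of the eleventh intron, chr4:82306801-82310200, held 3200 and 2200 bp. The 1 region of this stretch that all 4 libraries shared, chr4:82482201-82490000, was lower, with 7800 and 4400 bp in shCTR against 3600 and 2600 bp in the shPHF8 libraries. The core of a region is the longest stretch under a peak in every library that had a peak in that region. Shown on the minus strand are the middle of the core of the widest lost region, chr4:82426351-82426650, and that of the shared one, chr4:82487151-82487450. These windows set a lost region beside one that every library shared. Neither holds the half-site TTGGCA, or TGCCAA on the other strand, so all letters are lower case.
Nfib lost region: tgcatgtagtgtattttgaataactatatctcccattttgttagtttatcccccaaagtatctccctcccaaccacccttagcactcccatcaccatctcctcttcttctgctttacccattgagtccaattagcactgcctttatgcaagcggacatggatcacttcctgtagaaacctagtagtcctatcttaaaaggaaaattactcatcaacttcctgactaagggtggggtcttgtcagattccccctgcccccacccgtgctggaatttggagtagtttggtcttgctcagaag
Nfib shared region: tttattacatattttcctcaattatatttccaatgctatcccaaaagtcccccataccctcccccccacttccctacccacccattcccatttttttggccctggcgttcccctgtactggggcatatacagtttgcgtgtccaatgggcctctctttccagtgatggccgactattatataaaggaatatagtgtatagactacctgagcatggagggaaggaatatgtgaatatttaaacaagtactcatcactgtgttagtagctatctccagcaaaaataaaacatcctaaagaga
Soft-masked repeats made up 17% of the lost window and 59.3% of the shared one, but 15.6 and 16.9% of the whole regions. In the extension, the region chr4:82675801-82680800 was higher in shPHF8 NSCs, with 2000 and 1800 bp in shCTR against 5000 and 3800 bp in the shPHF8 libraries.

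The flanks of Nfib overlapped between the conditions. Upstream the covered length was 15600 and 12800 bp in the shCTR libraries, and 14600 and 19400 bp in the shPHF8 libraries. Downstream it was 3600 and 4800 bp in the shCTR libraries, and 2800 and 3800 bp in the shPHF8 libraries. A lower downstream flank, which no NFI gene had, was found in 7.42% of genes. After scaling, the Nfib downstream flank was lower (-1920 bp), as were 20.6% of genes, and the upstream difference went from 2800 to -1335 bp, still overlapping.

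**Figure D2:**
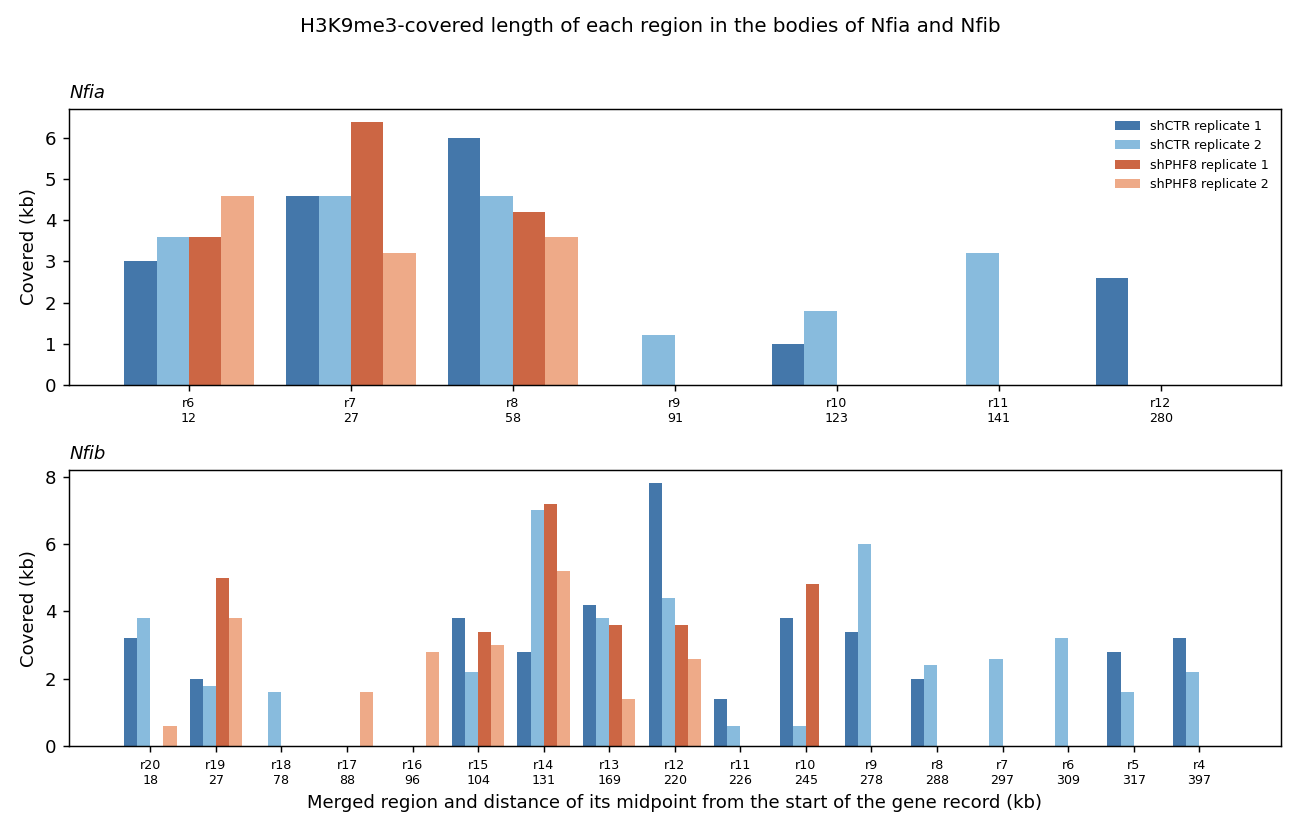
Covered length (kb) of every merged H3K9me3 region in the bodies of Nfia (7 regions) and Nfib (17 regions), ordered from the start of the gene, with the distance of the region's midpoint from the start (kb) under its number and 1 bar per library. Blue bars are shCTR and orange bars shPHF8 replicates. Toward the end of both genes only blue bars are left, as at the Nfib region 278 kb from the start with 3400 and 6000 bp in the shCTR libraries and none in shPHF8. Some of these regions had a peak in a single shCTR library only.

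Nfic, on the minus strand of chromosome 10 from 81396186 to 81455635, was the 1 member whose body was higher in shPHF8 NSCs. Peaks covered 1635 and 1835 bp of its 59450 bp in the shCTR libraries, and 4235 and 4435 bp in the shPHF8 libraries. The groups stood apart by more than the spread within them, with means of 1735 ± 141 bp and 4335 ± 141 bp (SD, n = 2 each), a difference of 2600 bp and a ratio of 2.50 (exact permutation p = 0.333). A higher body was found in 13.0% of all protein-coding genes and in 35.3% of those of 100 kb or longer, or 6.98 and 18.1% after scaling. The whole signal came from 1 region, chr10:81451201-81466800, that runs across the distal start of Nfic into the end of its neighbour Celf5, an RNA-binding protein gene. The region was covered over 11800 and 12200 bp in the shCTR libraries, and over 15000 and 14800 bp in the shPHF8 libraries. It reaches Nfic only through the transcript Nfic-207, while the principal transcript, from 81399138 to 81427173, had 0 covered bases in all 4 libraries.

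Within 3 kb of the distal Nfic start the covered length was 4635 and 4035 bp in the shCTR libraries, and all 6001 bp of the window in both shPHF8 libraries. That made Nfic the 1 member that was higher in this window, as were 4.05% of genes, and no member was lower, as were 4.09%. Within 1 kb the groups overlapped, with 1235 bp in shCTR replicate 1 and all 2001 bp in the other libraries. A peak in this window in all 4 libraries was found in 11.1% of genes. The 300 bases around the start, chr10:81455486-81455785, are shown on the minus strand because every library had a peak over all of them, with the coding bases of the first exon of Nfic-207 in capitals.
Nfic distal start: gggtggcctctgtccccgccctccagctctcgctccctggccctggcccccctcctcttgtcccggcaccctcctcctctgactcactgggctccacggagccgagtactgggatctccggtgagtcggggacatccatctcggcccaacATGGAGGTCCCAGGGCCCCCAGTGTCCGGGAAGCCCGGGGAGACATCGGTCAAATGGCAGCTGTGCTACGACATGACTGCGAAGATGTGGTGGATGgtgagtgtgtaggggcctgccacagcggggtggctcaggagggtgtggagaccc
The GC content of this window is 66.7%, against a median of 44.7% over all merged regions. The 96 capital bases were the only exonic bases of Nfic under a peak in these lists.

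Upstream of Nfic the covered length was 21365 and 26600 bp in the shCTR libraries, and 20400 and 18765 bp in the shPHF8 libraries. This flank was lower, as were 7.11% of upstream flanks and 19.8% after scaling, while the body was higher. The difference of -4400 bp was -1783 bp without shCTR replicate 2 and -7018 bp without shCTR replicate 1, and the groups overlapped with peaks of 2000 bp or wider (-1400 bp) and with equal numbers of the widest peaks (-3900 bp). The flank holds Celf5, whose body was covered over 9174 and 12774 bp in the shCTR libraries and 7174 and 6774 bp in the shPHF8 libraries, with 1 lost region, chr10:81472801-81475800, of 2600 bp in each shCTR library. It also holds Gna15, a G-protein alpha subunit gene, with 7000 and 8800 bp in the shCTR libraries and 7400 and 6800 bp in the shPHF8 libraries. Downstream, the peaks of shCTR replicate 2 (1400 bp) and shPHF8 replicate 2 (1600 bp) lay in Gipc3.

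Nfix, on the minus strand of chromosome 8 from 84699876 to 84800344, overlapped between the conditions. Peaks covered 8000 and 10800 bp of its 100469 bp in the shCTR libraries, and 7200 and 8800 bp in the shPHF8 libraries, a mean difference of -1400 bp (exact permutation p = 0.667). The call changed when some single libraries were left out and after scaling, steps that make a lower call easier to reach. The body was lower without shCTR replicate 1 (-2800 bp), without shPHF8 replicate 2 (-2200 bp) and after scaling (-3768 bp), while the difference was 0 bp without shCTR replicate 2 and 200 bp with peaks of 2000 bp or wider. A region at the end of Nfix covered part of its last exon in every library. That region, chr8:84704001-84708000, was covered over 2600 and 3400 bp in the shCTR libraries and 3800 and 3200 bp in the shPHF8 libraries, and lies in the 3′ UTR and over the end of Lyl1, a gene for a blood-cell transcription factor. Exons held 28.6 and 24.9% of the covered body in the shCTR libraries and 45.7 and 35.1% in the shPHF8 libraries, while they make up 7.32% of the Nfix body. In exonic bases Nfix was higher, with 2289 and 2689 bp in the shCTR libraries and 3289 and 3089 bp in the shPHF8 libraries, but its intronic bases overlapped. All of these exonic bases lay in the last exon, inside chr8:84704001-84708000, and the whole covered length of that region overlapped between the conditions. No share of genes that were higher in exonic bases is given here.

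Nearer to the distal start of Nfix, the region chr8:84783601-84788000 had peaks in all 4 libraries, over 3200 and 4200 bp in the shCTR libraries and 3400 and 3600 bp in the shPHF8 libraries. The next, chr8:84796001-84798400, had 2200 and 1800 bp in the shCTR libraries and 2000 bp in shPHF8 replicate 2, with no peak in shPHF8 replicate 1. Upstream of the gene the covered length was 2600 bp in each shCTR library, and 5800 and 2800 bp in the shPHF8 libraries. This flank was higher, as were 33.6% of upstream flanks and 17.1% after scaling, but the difference of 1700 bp rested on a peak of shPHF8 replicate 1 and was 200 bp without that library. Downstream of Nfix no library had a peak within 100 kb.

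**Figure D3:**
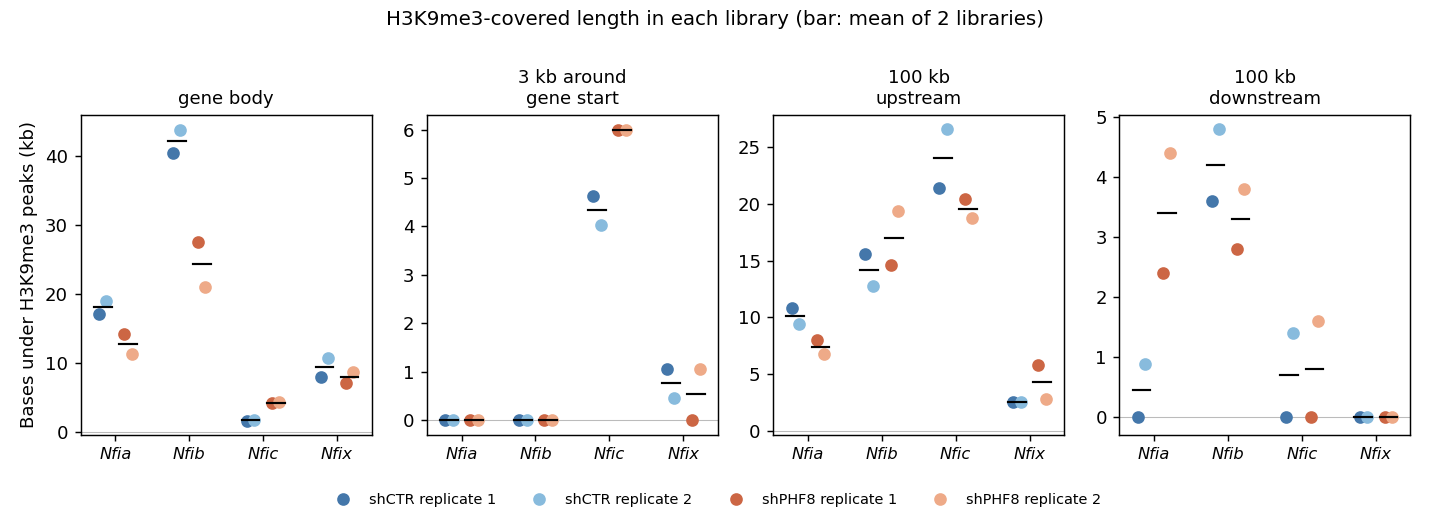
Length under H3K9me3 peaks (kb) in the gene body, within 3 kb of the gene start and in the 100 kb upstream and downstream of each NFI gene, with 1 point per library and a black bar at the mean of the 2 libraries of a condition. The vertical scale differs between panels. The body panel shows both shPHF8 points under both shCTR points for Nfia and Nfib, above them for Nfic and overlapping for Nfix.

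The start sites of the principal transcripts carried no peak within 3 kb in any library in any of the 4 genes. The nearest peak lay 4593 to 4993 bp away in Nfia, 15308 to 16708 bp in Nfib, 24028 to 26628 bp in Nfic and 4596 to 10605 bp in Nfix. A peak within 3 kb of the start of the gene record was found in at least 1 library in 28.0% of protein-coding genes. The record starts of Nfia and Nfib had none, that of Nfic had one in all 4 libraries, and that of Nfix had 1057 and 457 bp in the shCTR libraries, and 0 and 1057 bp in the shPHF8 libraries.

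By share of the gene body under peaks, the order of the 4 paralogs changed between the conditions. In shCTR replicates 1 and 2 the share was 9.72 and 10.5% in Nfib, 7.96 and 10.7% in Nfix, 4.97 and 5.49% in Nfia, and 2.75 and 3.09% in Nfic. In shPHF8 replicates 1 and 2 it was 7.17 and 8.76% in Nfix, 7.12 and 7.46% in Nfic, 6.64 and 5.05% in Nfib, and 4.10 and 3.29% in Nfia. Nfic thus stood last in both shCTR libraries and next to Nfix in both shPHF8 libraries. Over all 4 libraries, however, the ranges of every pair of neighbours in the order of the means overlapped. Averaged over the libraries, Nfia stood at percentile 46.3, Nfib at 63.8 and Nfix at 65.6 of the share covered among genes of 100 kb or longer, so none of these 3 long members lay near either end.

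Counted in regions, the 4 gene bodies held 29, with 11 present in all 4 libraries, 6 lost and 0 gained. Among all regions of the genome these states made up 37.9, 5.03 and 4.28%. In covered bases, 10 of the 29 were lower and 2 were higher, beside 8.18% lower and 23.7% higher among all regions of the genome. Of the 10 lower regions, 8 were in Nfib and 2 in Nfia. After scaling, 13 were lower and 1 was higher, beside 17.8 and 14.4% of all regions. Without shCTR replicate 1 the number of lost regions was 12, and without shPHF8 replicate 1 there were 2 gained regions. These states are easier to reach with 1 library in a condition. The bodies touched 33 bins of 30 kb, and 22 of these held a peak. Of these 22 bins, 8 were lower and 1 was higher, beside 8.85% and 29.8% of the 44182 bins with a peak in the genome. After scaling, 11 were lower and 1 was higher, beside 19.8 and 18.1% of these bins. Bins of 1 gene are neighbours and not independent, and 6 of the 8 lower bins were in Nfib.

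**Figure D4:**
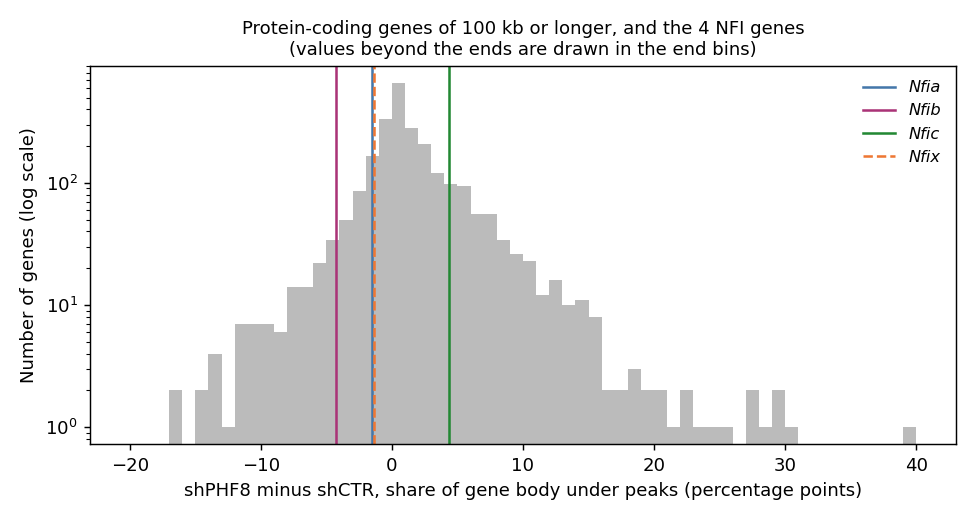
Number of protein-coding genes of 100 kb or longer (log scale) by the difference between shPHF8 and shCTR in the share of the body under peaks (percentage points, mean of 2 libraries each), with the 4 NFI genes as lines. Nfib is at -4.28, Nfia at -1.53, Nfix at -1.39 and Nfic at 4.37, and Nfic is drawn for comparison because it spans 59450 bp only.

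The genes whose share of covered body was nearest to that of each member over the 4 libraries, among genes of 0.67 to 1.5 times its length, were St7, Iqgap2 and Chchd3 for Nfia. For Nfib they were Macf1, Msra and Dip2c, for Nfic Atl3, Grap2 and Sept10, and for Nfix Tbc1d16, Jmy and Fhl2. The distance of the nearest gene, the Euclidean distance over the 4 shares, was 1.32 percentage points for Nfia, 2.59 for Nfib, 1.34 for Nfic and 1.81 for Nfix.

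Of 22 genes that work with NFI factors or are their targets in gliogenesis, or that were studied beside NFIA, 14 had a peak in the body and 9 within 3 kb of the start in at least 1 library. These were 63.6 and 40.9% of the list, beside 47.2 and 28.0% of all protein-coding genes, and the median share of the body covered was 2.37% in the list and 0% over all genes. The body was lower in 5 of them and higher in 1, or 22.7 and 4.55%, beside 6.08 and 13.0% of all protein-coding genes. After scaling, 6 were lower and 1 was higher, or 27.3 and 4.55%, beside 14.1 and 6.98%, and the added lower gene was Nrf1, a transcription factor gene. The lower ones before scaling were Ezh2, a histone H3 lysine 27 methyltransferase, Aldh1l1 and Slc1a3, an enzyme and a glutamate transporter of astrocytes, Fabp7, a fatty acid binding protein of radial glia, and Apcdd1, a Wnt inhibitor. Slc1a3 was covered over 13400 and 23800 bp in the shCTR libraries, and over 10400 and 8600 bp in the shPHF8 libraries. Fabp7, which is also among the neural stem cell markers, had 2250 and 1050 bp in the shCTR libraries and 650 and 0 bp in the shPHF8 libraries. Ezh2 had 5200 and 3800 bp in the shCTR libraries and 3400 and 2400 bp in the shPHF8 libraries. The body of Aldh1l1 was covered most of these, over 43600 and 39600 bp in the shCTR libraries and 34000 and 39000 bp in the shPHF8 libraries. Apcdd1 had 5200 and 3000 bp in its body in the shCTR libraries and none in shPHF8 libraries, but it was the 1 listed gene with a peak within 3 kb of its start in all 4 libraries. That start window was higher, with 1831 and 570 bp in the shCTR libraries and 2170 bp in each shPHF8 library. Mmd2, an NFIA target in astrocyte precursors, was higher in the body, with 9800 and 10000 bp in the shCTR libraries and 16800 and 15800 bp in the shPHF8 libraries. Its start window was also higher, with 0 bp in each shCTR library and 1200 and 200 bp in the shPHF8 libraries. The start window of Hes5, also a neural stem cell marker, was lower, with 1200 bp in each shCTR library and none in shPHF8 libraries. That of Fabp7 was lower too, with 2401 and 1201 bp in shCTR against 801 and 0 bp in the shPHF8 libraries. Over all protein-coding genes this window was higher in 4.05% and lower in 4.09%. Sox9, which acts upstream of NFIA, and Hes1, E2f4 and Atf4 had no peak in the body or within 3 kb of the start in any library.

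The sequence under NFI peaks was compared with that of all regions. The 55 regions of the 4 bodies and flanks had a median of 19.9% soft-masked repeat bases, beside 27.7% over the 71107 regions of the genome, and a median GC content of 43.4% beside 44.7%. Soft-masked bases made up 15.9% (Nfia) to 20.2% (Nfib) of the 4 whole gene bodies. Under the peaks of Nfix, 7.39% of bases were in CpG, beside 3.51% in the rest of its body. The same shares were 2.20 and 1.82% in Nfia, 2.15 and 2.04% in Nfib, and 4.24 and 3.90% in Nfic. The half-site TTGGCA or TGCCAA was present in the middle 300 bases of the core, as defined above, in 14 of the 55 regions, or 25.5%. It was present in 14.9% of 71100 windows of 300 bases at the centres of merged regions across the genome. The placement of the windows may differ between these sets, so the shares are not a like-for-like comparison. Among the core windows, the half-site was present in 2 of the 9 lost regions and in 5 of the 19 regions with a peak in all 4 libraries. These windows share loci and base composition, the shares are given as a description, and a match of these letters is not evidence of binding.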

How the data were processed

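H3K9me3 ChIP-seq was analysed from 4 deposited peak lists, 1 per ChIP library (2 shCTR, 2 shPHF8), and the 2 inputs were not used here. Reads were single-end of 50 bp per the labels. Per the study's methods, the authors aligned reads to mm10 with SOAPaligner/SOAP2 and called broad peaks with SICER2, without a stated window, gap, false discovery rate or input for these lists. The submitters' processing notes also name Bowtie2 2.3.5.1, SAMtools 1.9 and deepTools, which the methods describe for ATAC-seq. The deposited lists hold chromosome, start and end, with no score or depth, so covered bases depend on the authors' threshold and on sequencing depth. The study's supplement lists mapped reads per library, the fewest for shPHF8 replicate 2, and these were not used here. Every peak width was a multiple of 200 bp once the end was read as inclusive. The 2 peaks per library off chromosomes 1 to 19, X and Y were left out.

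Covered bases were counted over GENCODE M21 gene records, exons, introns, 3 kb on each side of the gene start and 100 kb flanks, with Python 3.11.15, numpy 2.4.6 and pysam 0.24.0. The counting was tested on simulated peaks against bedtools 2.31.1. Peaks of all libraries that overlapped or touched were merged into regions. A region shared in part had peaks in both conditions but not in all libraries. The principal transcript is the one tagged as APPRIS principal. Promoter entries of RefSeq for Nfia, Nfic and Nfix on the same build had 0 covered bases in every library. Sequences were read from GRCm38, and 1 sequence is not reported here. Differences were tested over libraries with an exact two-sided permutation test.

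The members, the lists and the alternatives were chosen with earlier results of these data known. The genes named were the 4 members, coding genes under a flank peak, listed NFI partners and targets whose conditions did not overlap in the body or with a start-site peak in all 4 libraries, the 3 genes nearest in pattern to each member, Phf8, and the markers. Listed genes without a peak were named after their values were seen.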

Additional observations from a re-analysis of the deposited data

How the results depend on the processing

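Of 158 recomputed values, 125 kept their call or, for counts, stayed within 1.5 times, and no called difference changed sign. That number includes alternatives that could not have changed a call, such as those of Nfix downstream, where no library had a peak. Of 124 recomputed differences in bp, 6 had the opposite sign, all of values that overlapped as reported. These were Nfib upstream (2800 to -1335 bp) and Nfic downstream (100 to -59.4 bp) after scaling to the same total covered length, Nfic downstream without shCTR replicate 1 (-600 bp) or shPHF8 replicate 2 (-700 bp), the Nfix body with peaks of 2000 bp or wider (-1400 to 200 bp), and the Nfix start window when any transcript start was used (-228 to 312 bp). The Nfia body, Nfib body and Nfia downstream calls held under every alternative run. Leaving out a library or using the replicate number as a block cannot undo a higher or lower call. Scaling cannot undo a lower call, because both shPHF8 libraries had larger totals than both shCTR libraries. Only the remaining alternatives could have changed these calls. Peak lists hold no score, so a stricter score threshold was not run, and the lists give no depth. The cause of the changes below was not tested.

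With covered lengths scaled to the same total, the Nfib downstream flank (-1920 bp) and the Nfix body (-3768 bp) became lower, the Nfix upstream flank (715 bp) overlapped, and 1532 genes were higher and 3085 lower, beside 2854 and 1334 as reported. The scaled shares of flanks, regions, bins and listed genes were added after seeing the data. With peaks of 2000 bp or wider, the upstream flanks of Nfia (-1934 bp) and Nfic (-1400 bp) overlapped, that of Nfib (3200 bp) became higher, Nfib downstream (-1600 bp) became lower and 761 genes were lower. With equal numbers of the widest peaks, Nfic upstream (-3900 bp) overlapped and Nfib downstream (-1600 bp) became lower. With 50 kb flanks Nfia upstream (-1800 bp) overlapped, within 1 kb of the start Nfic (383 bp) overlapped, and in the principal transcript, an alternative added after seeing the data, Nfic had a difference of 0 bp. With at least 50% of a region covered, 1 region of the 4 bodies was gained.

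Leaving out each library in turn gave ranges of 400 to 5200 bp for Nfib upstream, -1500 to -300 bp for Nfib downstream, -700 to 900 bp for Nfic downstream and -2800 to 0 bp for the Nfix body. Nfib downstream and the Nfix body became lower without shCTR replicate 1 or without shPHF8 replicate 2, Nfib upstream became higher without shCTR replicate 1 or without shPHF8 replicate 1, and Nfic downstream became higher without shPHF8 replicate 1. Leaving out a library gave 3697 to 4687 higher and 2123 to 2625 lower genes, 0 to 2 gained regions and 7 to 12 lost ones, the 2 without shPHF8 replicate 1 and the 12 without shCTR replicate 1. With 1 library in a condition all of these calls are easier to reach, so the gene counts could not fall whichever library was left out.

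The labels do not say whether libraries of the same replicate number were paired. Deviations of same-numbered libraries from their condition means had a correlation of 0.00184 over 10353 genes. With 2 libraries per condition, this value cannot settle whether they were paired. With the replicate number as a block, Nfib downstream (-900 bp) and the Nfix body (-1400 bp) became lower, and 3425 genes were higher and 1680 lower.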
